A study of Homo sapiens with 20 samples.

Results

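The genes described here are 10 that are widely used to recognise radial glia and astrocytes, FABP7, SLC1A3, SLC1A2, HOPX, PROM1, TNC, PTPRZ1, AQP4, S100B and GLUL. They were taken by name from the 20237 coding records, out of 38369 gene records in all. Each matched 1 record that carries 1 symbol. The samples were neural progenitor cells made from the established human embryonic stem cell line H1, and polyadenylated RNA was sequenced over 7 days of differentiation into neurons. At day 0 the cultures came from medium with the mitogen FGF, which keeps progenitors cycling. From then on FGF was left out and BDNF, a neurotrophic factor, was present, and sampling took place at days 1, 2, 4, 5, 11 and 18. The base medium and its supplements changed at the same switch, from a mix of DMEM/F12 and Neurobasal with N2 and B27 to Neurobasal with B27. Loss of FGF, addition of BDNF and the new medium therefore cannot be told apart. Cultures of days 0 to 4 grew on Matrigel, and those of days 5, 11 and 18 had been moved on day 4 to a surface of poly-D-lysine and laminin. There were 3 cultures per day, and 2 on day 5, where the submitters had removed an outlier. All cultures are of 1 cell line. Expression is in FPKM, a measure corrected for the length of a transcript and for sequencing depth, so that genes can be set beside each other. The deposited table has 1 value per record and day, pooled over that day's cultures. The spread between cultures and the depth are therefore unknown here, no test was possible, and every difference below is a description.

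Radial glia are the stem cells of the embryonic cerebral wall. They span it with a long fibre, divide at the ventricle, give rise first to neurons and later to astrocytes, and share many genes with astrocytes. Of the 10 genes, SLC1A3, SLC1A2 and GLUL serve the uptake of synaptic glutamate and its conversion to glutamine, TNC and PTPRZ1 belong to the extracellular matrix and its receptors, FABP7 binds fatty acids, PROM1 sits on membrane protrusions, S100B binds calcium, AQP4 is the water channel of astrocyte endfeet, and HOPX is a homeodomain protein used to mark outer radial glia.

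The 10 genes did not take a common course. SLC1A2 and SLC1A3 were 25.2-fold and 5.86-fold higher on day 18 than on day 0, PROM1 and TNC were 4.98-fold and 3.26-fold lower, FABP7 and PTPRZ1 stayed among the most abundant coding records throughout, and S100B was 6.03-fold lower after the first day and nearer to its starting level on day 18. These folds are relative to the median expressed coding record, as defined below. They differ from the ratios of the FPKM values themselves, which were 18.2 for SLC1A2 and 3.89 for SLC1A3. HOPX and AQP4 were near 0 on every day. The label of radial glia and astrocytes was borne out only in part. Of other radial glia genes 14 of 16, among them the very abundant VIM, NES and SOX2, and of other astrocyte genes 13 of 21 had a mean of at least 1 FPKM. So had 11793 of all 20237 coding records, a share near that of the astrocyte genes, whose count therefore says little about the label. HOPX did not exceed 0.0638 FPKM. The radial glia genes CRYAB and LHX2 had means of 0.555 and 0.367 FPKM. Both lists thus held abundant and scarce genes. Among the astrocyte genes CLU, GJA1 and FGFR3 had the highest means, 49.3, 48.4 and 23.5 FPKM. Of those with a mean below 1 FPKM, GFAP did not exceed 0.186 FPKM and ALDH1L1 did not exceed 0.0364 FPKM. GJB6 was listed at 0 on all 7 days. The genes are therefore called by their names below and not taken as counts of a cell type. In bulk RNA, fewer cells of a type and less RNA per cell cannot be told apart.

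Changes are given as log2 ratios with 0.1 FPKM added to each value, minus the median ratio over the 11793 coding records whose mean over the 7 days was at least 1 FPKM. This centring was needed because FPKM of expressed records drifted: total FPKM over coding records was 358744 on day 0 and 216151 on day 18, and the median shift was -0.60 between these days. A change counted as higher or lower when it reached 2-fold on this centred scale. Of the 10 genes, 8 passed the minimum of 1 FPKM, and HOPX and AQP4 did not and were given values only.

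The promoters of FABP7 and PTPRZ1, which had closely matching profiles, of SLC1A3, which was higher on day 18, and of TNC, which was lower, are printed here because the profiles below turn on these genes. The sequences are RefSeq's, from GRCh38.p14, cover 250 bases before the transcription start and 50 after it, and were each found at 1 place in hg19, whose coordinates are given. The table held promoters of 8 of the 10 genes. Capitals mark matches, on either strand, to the letters TGGGAA (core of RBPJ sites), ATGCAAAT (octamer), AACAAT (SOX core), TTGGC (NFI motif), TTCNNNGAA (STAT) or TGANTCA (AP-1).
FABP7, chr6:123100611-123100910, plus strand: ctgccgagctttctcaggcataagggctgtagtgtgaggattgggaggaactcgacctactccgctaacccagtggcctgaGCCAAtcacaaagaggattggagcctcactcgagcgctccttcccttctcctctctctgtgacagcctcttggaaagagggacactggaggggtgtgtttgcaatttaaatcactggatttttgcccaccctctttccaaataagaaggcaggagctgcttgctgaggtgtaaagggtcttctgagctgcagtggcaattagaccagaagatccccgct
PTPRZ1, chr7:121512965-121513264, plus strand: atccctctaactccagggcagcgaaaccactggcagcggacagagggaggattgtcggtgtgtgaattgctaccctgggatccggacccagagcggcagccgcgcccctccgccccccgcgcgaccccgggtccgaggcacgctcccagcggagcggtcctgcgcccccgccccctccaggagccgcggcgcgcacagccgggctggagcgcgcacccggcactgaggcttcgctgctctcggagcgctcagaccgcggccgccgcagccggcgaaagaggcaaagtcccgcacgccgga
SLC1A3, chr5:36606458-36606757, plus strand: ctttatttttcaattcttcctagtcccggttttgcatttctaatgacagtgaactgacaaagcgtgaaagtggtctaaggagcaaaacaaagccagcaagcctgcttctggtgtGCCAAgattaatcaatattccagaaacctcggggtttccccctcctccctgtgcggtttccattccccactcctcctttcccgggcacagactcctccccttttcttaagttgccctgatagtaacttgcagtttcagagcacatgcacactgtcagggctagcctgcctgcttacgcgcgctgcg
TNC, chr9:117880387-117880686, minus strand: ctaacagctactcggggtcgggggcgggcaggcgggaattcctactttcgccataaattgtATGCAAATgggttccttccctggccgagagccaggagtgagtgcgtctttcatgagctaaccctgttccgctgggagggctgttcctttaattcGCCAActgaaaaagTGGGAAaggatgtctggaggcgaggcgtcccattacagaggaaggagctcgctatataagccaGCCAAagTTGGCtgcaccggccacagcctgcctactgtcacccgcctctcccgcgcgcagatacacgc
The transcription start in each window lay near a start of the gene's record, 215 bases from it for FABP7, 56 for PTPRZ1, 251 for SLC1A3 and 50 for TNC. The TNC window held 1 octamer, 1 RBPJ core and 3 NFI motifs, the last 2 of which sit side by side without sharing a base. The printed windows of FABP7 and SLC1A3 had 1 NFI motif each, and that of PTPRZ1 had no match to any of the 6 motifs. SLC1A3 has 3 promoters in the table, of which the one nearest to a start of the record is printed. Of the others, 1 held a SOX core and a STAT match, and the other held 2 AP-1 matches. Among 35116 promoters of the same length the octamer was found in 1.77%, the RBPJ core in 24.0% and the NFI motif in 45.6%, against 10.1% for the SOX core, 7.66% for STAT and 7.71% for AP-1. A match describes the letters of the window and no binding was measured.

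FABP7, the brain fatty acid binding protein and a target of Notch signalling in radial glia (chr6:123100646-123105216, plus strand), was the most abundant of the 10 genes on each of the 7 days. Its level was 195 FPKM on day 0, 92.8 on day 1, 93.1 on day 2, 91.4 on day 4, 130 on day 5, 181 on day 11 and 258 on day 18. It was thus low on days 1, 2 and 4, and past its starting level only on day 18. Relative to the median record the change was -0.96 on day 1 and 1.00 on day 18, or 2.00-fold higher, which is right at the threshold. Without centring the day 18 change was 0.40, and the day 11 change turned from 0.22 to -0.11. FABP7 ranked above 97.9% of expressed coding records on day 0, 95.5% on day 4 and 99.3% on day 18.

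PTPRZ1, a receptor tyrosine phosphatase of radial glia that binds tenascins and the growth factor pleiotrophin (chr7:121513159-121702088, plus strand), was second to FABP7 on every day. Its level was 127 FPKM on day 0, 76.3 on day 1, 68.0 on day 2, 72.5 on day 4, 78.1 on day 5, 99.5 on day 11 and 99.3 on day 18. The course had the shape of that of FABP7 but was shallower, with a change of -0.85 on day 2. At day 18 the change from day 0 was 0.24 relative to the median and -0.36 without centring, so its direction depends on the scaling. It stayed between the percentiles 93.2 and 97.8 of expressed coding records.

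S100B, a calcium-binding protein of astrocytes and some progenitors (chr21:48018531-48025035, minus strand), showed the deepest early trough. The level was 8.68 FPKM on day 0, 1.25 on day 1, 0.593 on day 2, 0.762 on day 4, 1.09 on day 5, 1.89 on day 11 and 4.25 on day 18. Within 1 day of the switch of medium it was 6.03-fold lower relative to the median record, a change below that of all but 0.0594% of expressed coding records. From day 2 to day 18 it was higher by 3.20 on the log2 scale, of which 1.40 fell between days 11 and 18. The net change from day 0 to day 18 was -0.42, and -1.01 without centring.

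**Figure D1:**
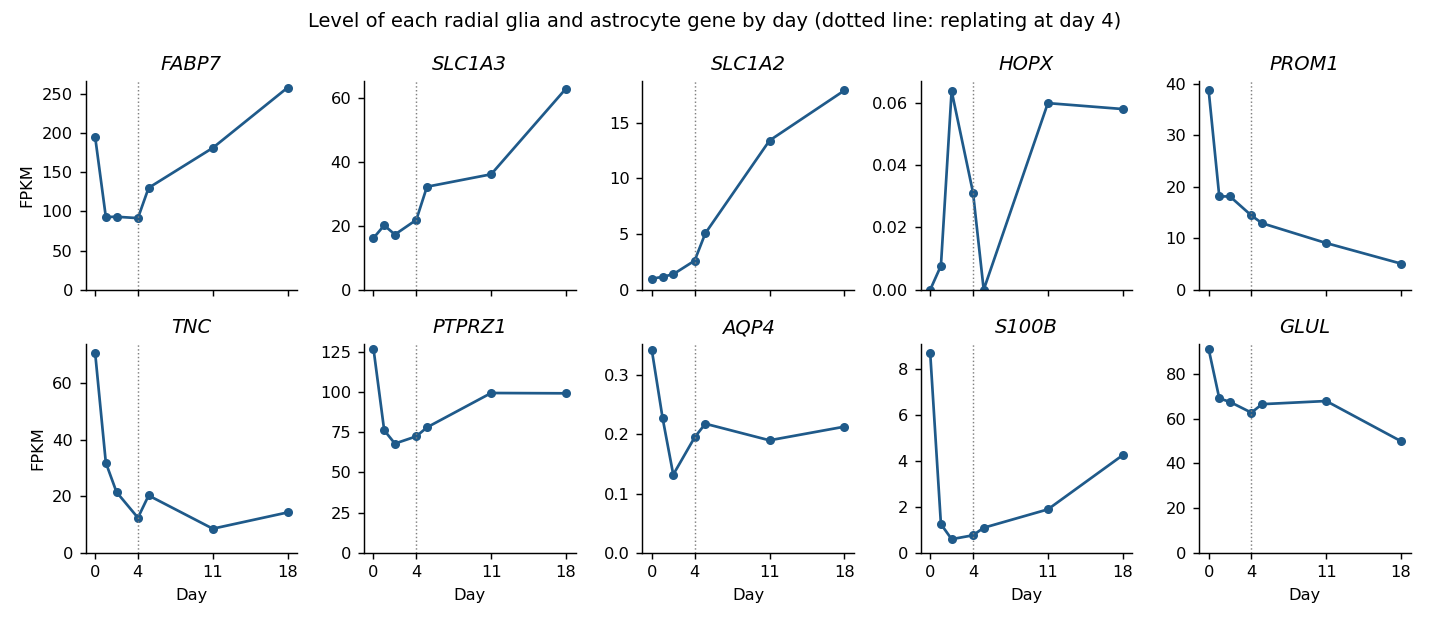
Level of each of the 10 genes (vertical axes, FPKM, each starting at 0 with its own range) against day (horizontal axes), 1 point per day and no error bar because each value pools the day's cultures. FABP7, PTPRZ1 and S100B are low between days 1 and 4, SLC1A3 and SLC1A2 are highest on day 18, PROM1 is lowest on day 18, and HOPX and AQP4 stay below 0.35 FPKM.

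SLC1A3, the glutamate-aspartate transporter GLAST that radial glia and astrocytes carry (chr5:36606457-36688434, plus strand), was measured at 16.2 FPKM on day 0, 20.2 on day 1, 17.3 on day 2, 21.9 on day 4, 32.3 on day 5, 36.2 on day 11 and 63.1 on day 18. All later days lay above day 0. The change on day 18 was 2.55, or 5.86-fold higher, and 1.95 without centring. Its place among expressed coding records went from the percentile 59.8 to 95.7. The step from day 11 to day 18 alone was 1.07, and 0.80 without centring.

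SLC1A2, the glutamate transporter GLT-1 of mature astrocytes (chr11:35272753-35441524, minus strand), had the largest change of the 8 genes. Its level was 0.983 FPKM on day 0, 1.16 on day 1, 1.39 on day 2, 2.61 on day 4, 5.07 on day 5, 13.4 on day 11 and 17.9 on day 18, so each day was above the one before. The change from day 0 was 1.40 on day 4, 2.40 on day 5, 3.96 on day 11 and 4.65 on day 18, the last being 25.2-fold and above that of 99.4% of expressed coding records. On day 18 it was 4.05 without centring. SLC1A3 was still the more abundant transporter on every day, but the ratio of SLC1A3 to SLC1A2 was 16.5 on day 0, 2.71 on day 11 and 3.53 on day 18. This ratio is taken within a day and does not depend on the scaling.

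GLUL, glutamine synthetase, which turns the glutamate taken up into glutamine (chr1:182351669-182360950, minus strand), did not follow the transporters. The level was 91.3 FPKM on day 0, 69.1 on day 1, 67.5 on day 2, 62.7 on day 4, 66.5 on day 5, 67.9 on day 11 and 49.9 on day 18. No step reached 2-fold and the change on day 18 was -0.27, or -0.87 without centring. GLUL has processed pseudogenes elsewhere in the genome, and how reads were shared among such copies is not given in the sources used here.

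PROM1, the pentaspan membrane protein prominin-1 or CD133 of apical progenitors (chr4:15969849-16085623, minus strand), was lower at each sampled day than on day 0. The level was 38.8 FPKM on day 0, 18.1 on day 1, 18.1 on day 2, 14.4 on day 4, 12.9 on day 5, 9.05 on day 11 and 5.06 on day 18. A change of -0.99 occurred on the first day, just short of 2-fold, and every later step was negative but smaller. At day 18 PROM1 was 4.98-fold lower than on day 0 relative to the median record, a log2 change of -2.32, or -2.91 without centring. The ratio of FABP7 to PROM1 was 5.03 on day 0, 5.12 on day 1, 10.1 on day 5 and 50.9 on day 18, so most of the difference in this ratio arose after day 4.

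TNC, tenascin C, a matrix glycoprotein of the germinal zone (chr9:117782806-117880486, minus strand), had steps in both directions. The level was 70.8 FPKM on day 0, 31.9 on day 1, 21.5 on day 2, 12.4 on day 4, 20.3 on day 5, 8.53 on day 11 and 14.3 on day 18. Its lowest value was on day 11, not on day 18. The steps were -1.04, -0.61, -0.78, 0.77, -1.08 and 1.01 in order. At day 18 it was 3.26-fold lower than on day 0 relative to the median record, a log2 change of -1.71, or -2.30 without centring. PTPRZ1, its receptor, was 1.80 times as abundant as TNC on day 0 and 6.96 times on day 18.

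HOPX (chr4:57514154-57547872, minus strand) was listed at 0 on days 0 and 5 and had 0.00768 FPKM on day 1, 0.0638 on day 2, 0.0312 on day 4, 0.0599 on day 11 and 0.0580 on day 18. AQP4 (chr18:24432010-24445716, minus strand) had 0.342 FPKM on day 0, 0.228 on day 1, 0.132 on day 2, 0.195 on day 4, 0.218 on day 5, 0.190 on day 11 and 0.213 on day 18. Both are too low for a fold to be read. For AQP4 an antisense noncoding record shares 38.2% of the exon bases of AQP4 and reached 0.817 FPKM on day 18, above AQP4 itself. Since the default options of the programs take libraries as unstranded, reads on the shared bases of this pair cannot be told apart. Antisense records also overlap FABP7, SLC1A3, HOPX, PROM1, TNC, PTPRZ1 and GLUL, but their FPKM was at most 8.51% of the gene's own, the highest share being that of TNC. Such a record shares 96.8% of the exon bases of GLUL and 48.5% of those of HOPX, and at most 8.39% per record at the others. Shared reads of these pairs cannot be told apart either, so a low antisense FPKM does not settle how they were assigned.

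At day 0 the order of levels was FABP7, PTPRZ1, GLUL, TNC, PROM1, SLC1A3, S100B, SLC1A2, AQP4 and HOPX. At day 18 it was FABP7, PTPRZ1, SLC1A3, GLUL, SLC1A2, TNC, PROM1, S100B, AQP4 and HOPX. With no spread between cultures, neighbours such as SLC1A2 and TNC on day 18, at 17.9 and 14.3 FPKM, cannot be said to differ. The summed FPKM of the 10 genes was 550 on day 0, 279 on day 4 and 512 on day 18, and FABP7 made up the largest part of it.

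In the first day after the switch of medium none of the 8 expressed genes was at least 2-fold higher and 2, TNC and S100B, were at least 2-fold lower. Of all 11793 expressed coding records 4.66% were higher and 2.09% lower at this step. PROM1 at -0.99 and FABP7 at -0.96 lay just short of the threshold, and both passed it without centring. With days scaled to the same total, 1 of the 8 genes passed, S100B, and TNC did not. Only SLC1A3 and SLC1A2 had positive values, 0.42 and 0.33, and the median of the 8 genes was -0.80 against 0.00 over all records. Among all records past 2-fold 69.0% were higher, against 53.9% without centring and 80.7% with days scaled to the same total.

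Between days 1 and 2 only S100B reached 2-fold, at 2.01-fold lower, a call lost without centring at -0.96 and with a pseudocount of 1, where 0.110% of all records were higher and 0.161% lower. Between days 2 and 4 none of the 8 genes did, where 0.127% of all records were higher and 0.653% lower. The largest values of that second step were 0.87 for SLC1A2 and -0.78 for TNC.

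Across replating, from day 4 to day 5, 7 of the 8 genes had positive values and their median was 0.56, beside 0.00 over all expressed records. SLC1A2 was 2.00-fold higher, at the threshold, a call lost without centring at 0.93 and with a pseudocount of 1, followed by TNC at 0.77, SLC1A3 at 0.64, FABP7 at 0.58 and S100B at 0.54, and PROM1 was the exception at -0.09. In all, 0.373% of records were higher and 0.0424% lower. The day, the new surface and the replating itself change together at this step and cannot be told apart.

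From day 5 to day 11 SLC1A2 was 2.92-fold higher and TNC 2.11-fold lower, where 2.67% of all records were higher and 3.05% lower. From day 11 to day 18 SLC1A3 at 1.07, TNC at 1.01 and S100B at 1.40 were higher and none was lower, where 1.83% of all records were higher and 1.41% lower. Without centring only S100B passed at this last step. The share of higher records among those past 2-fold was 46.7% in the former step and 56.5% in the latter, against 29.8% and 18.4% without centring.

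**Figure D2:**
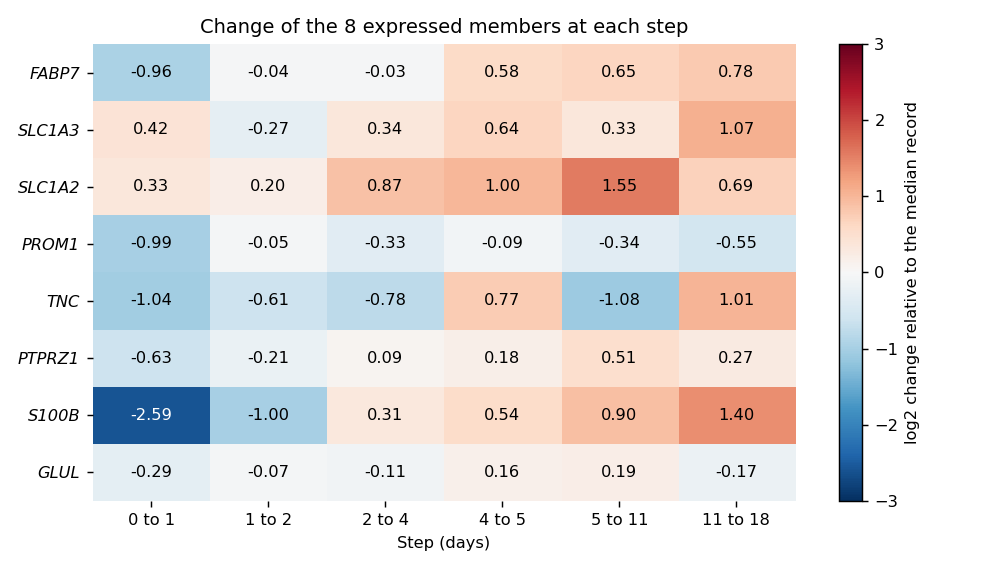
Change of each of the 8 expressed genes (rows) at each of the 6 steps between sampled days (columns), as log2 relative to the median record, printed in each cell and coloured red for higher and blue for lower. S100B has the lowest cell, -2.59 from day 0 to day 1, and SLC1A2 the highest, 1.55 from day 5 to day 11.

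Over the whole course 3 of the 8 genes were at least 2-fold higher on day 18 than on day 0, FABP7, SLC1A3 and SLC1A2, and 2 were at least 2-fold lower, PROM1 and TNC. Without centring the balance turned to 2 higher and 3 lower, as FABP7 at 0.40 dropped out and S100B at -1.01 came in, and with day 11 in place of day 18 it was also 2 higher and 3 lower. In all, 14.7% of records were higher and 12.1% lower, so 54.7% of those past 2-fold were higher, against 20.2% without centring. The median of the 8 genes was -0.02, next to 0.00 over all records. Comparisons that use the same day are not independent of each other.

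To compare courses, log2 levels were first recentred on each day's median expressed coding record. Across the 7 days, and as a description only because neighbouring days share the course of the culture, the recentred levels of FABP7 and PTPRZ1 had a Pearson correlation of 0.96, those of SLC1A3 and SLC1A2 0.96, and those of PTPRZ1 and S100B 0.93. PROM1 ran opposite to both transporters, at -0.90 with each. The coding records nearest in profile, by Euclidean distance over the 7 days among records of at least 1 FPKM, were a guide to what else took the same course. For these distances the mean of each recentred profile was subtracted, so they compare courses and not levels. SLC1A2 was nearest to MYT1, a neural zinc finger factor, at a distance of 0.31, and to SLC17A6, the vesicular glutamate transporter of neurons, at 0.42, where the median record was at 4.54. S100B was nearest to ALK, a receptor tyrosine kinase, at 0.67, and to GRM3, a metabotropic glutamate receptor, at 0.91. ALK went from 6.54 FPKM on day 0 to 0.575 on day 2 and 2.82 on day 18, and GRM3 from 5.36 to 0.716 and 2.87 on the same days. FABP7 was nearest to SEMA7A and PPP2R2B, SLC1A3 to SETD6 and MAPRE3, PROM1 to CCNJL and LIMS3, TNC to a merged record of GPSM3 and NOTCH4 and to BCAR3, PTPRZ1 to BZW2 and CHST11, and GLUL to SMARCD1 and ZC3H7A, at distances between 0.11 for SMARCD1 and 0.69 for BCAR3.

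**Figure D3:**
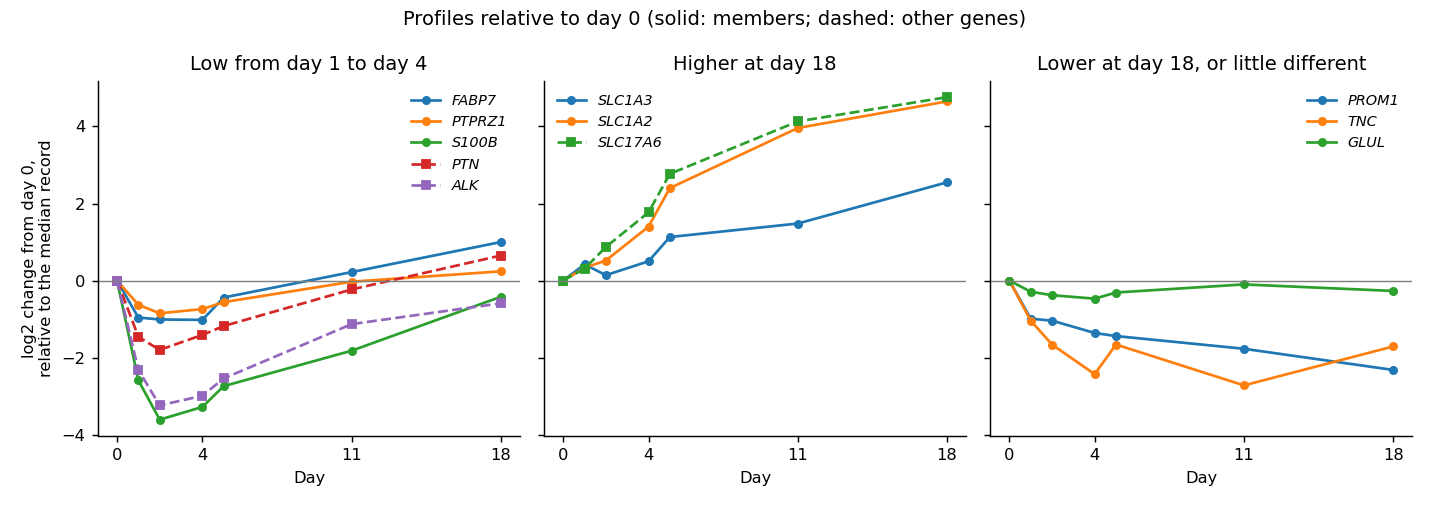
Log2 change from day 0, relative to the median record (vertical axis), against day (horizontal axis) for the 8 expressed genes (solid lines) and for PTN, ALK and SLC17A6 (dashed lines), 1 value per day. S100B and ALK reach -3.61 and -3.24 on day 2 and return to -0.42 and -0.59 on day 18, while SLC1A2 and SLC17A6 end at 4.65 and 4.76.

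Of the other genes of radial glia, 14 of 16 were expressed, and 4 of them were at least 2-fold higher and none lower on day 18, with a median change of -0.06. For this list and those that follow, the share over all expressed records was 14.7% higher and 12.1% lower. Without centring 4 were higher and 4 lower, the lower being NES at -1.51, ITGB5 at -1.30, LGALS3 at -1.20 and LIFR at -1.06. Of all 11793 expressed records 893 were higher and 3529 lower without centring. HES5, an effector of Notch, went from 1.95 to 20.0 FPKM, SOX9, a glial fate factor, from 7.25 to 34.8, FAM107A from 0.410 to 4.99 and PAX6, a cortical progenitor factor, from 4.31 to 10.4. Relative to the median record the most abundant genes of the list did not reach 2-fold, and of those named next NES did so without centring: the intermediate filament VIM was at 2948 and 1493 FPKM, NES at 513 and 180, and the stem cell factor SOX2 at 126 and 66.1. CRYAB, below the minimum, went from 0.116 to 1.67 FPKM.

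Of the astrocyte genes, 13 of 21 were expressed, 6 were higher and 5 lower, with a median change of 0.92. Both counts stand beside 14.7% higher and 12.1% lower among all expressed records. Among the higher were SPARCL1, a secreted matrix protein, from 1.5 to 26.7 FPKM, the sodium pump subunit ATP1B2 from 1.89 to 16, the bicarbonate transporter SLC4A4 from 0.500 to 3.19, NDRG2 from 0.582 to 2.05 and CLU, clusterin, from 26.4 to 65.5. Lower were ID3, an inhibitor of differentiation that responds to BMP, from 44.8 to 0.921 FPKM, GJA1, the gap junction protein connexin 43, from 78.3 to 15.0, and CD44, APOE and ALDOC. FGFR3 stood at 14.5 and 18.2 FPKM and did not reach 2-fold. Below the minimum, the gliogenic factor NFIA went from 0.237 to 2.00 FPKM and ACSBG1 from 0.384 to 1.30.

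Among the other genes of glutamate uptake and the glutamine cycle, 7 of 14 were expressed, 2 were higher and 1 lower, with a median change of -0.18. The shares over all expressed records were 14.7% higher and 12.1% lower. SLC17A6 went from 1.32 to 25.4 FPKM, beside SLC1A2 in both level and course. SLC1A4, a neutral amino acid transporter, went from 8.38 to 17.7 FPKM, and SLC1A5, which carries glutamine, from 88.2 to 15.3. The glutamine transporters SLC38A1, at 43.7 and 36.1 FPKM, and SLC38A2, at 53.4 and 29.5, and glutamate dehydrogenase GLUD1, at 32.3 and 18.8, stayed within 2-fold, as GLUL did. The neuronal transporters SLC1A1 and SLC1A6 were below the minimum and went from 0.570 to 2.75 and from 0.0379 to 1.28 FPKM.

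Of the ligands, receptors and partners of TNC and PTPRZ1, 14 of 16 were expressed, 4 were higher and 4 lower, or 4 and 7 without centring, with a median change of 0.00. Among all expressed records 14.7% were higher and 12.1% lower with centring. Pleiotrophin, PTN, the ligand of PTPRZ1, was at 360 FPKM on day 0, 122 on day 1, 99.8 on day 2, 129 on day 4, 144 on day 5, 246 on day 11 and 372 on day 18, a trough like those of FABP7, PTPRZ1 and S100B. Its relative MDK, midkine, had no such trough and was at 616 FPKM on day 0, 867 on day 1 and 271 on day 18. ALK, which has also been described as a receptor for both growth factors, had the trough given above. Higher on day 18 were the neural adhesion molecules NCAM1, from 9.31 to 133 FPKM, NFASC, from 2.46 to 22.2, and CNTN1, a ligand of PTPRZ1, from 0.937 to 3.87, and the proteoglycan GPC2, from 26.5 to 72.6. Lower were the tenascin-binding integrins ITGAV, from 35.0 to 6.22 FPKM, ITGA9, from 3.45 to 0.374, and ITGB1, from 213 to 39.5, and the syndecan SDC4, from 2.68 to 0.157. VCAN, versican, was at 88.0 and 29.8 FPKM, and TNR, below the minimum, at 0.0210 and 0.334.

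Of the relatives of FABP7, S100B, PROM1 and GLUL, 6 of 13 matched were expressed, and 5 were lower and none higher, or 6 lower without centring, with a median change of -1.74. With centring, 12.1% of all expressed records were lower and 14.7% higher. FABP3 went from 33.3 to 5.35 FPKM, S100A16 from 36.1 to 6.37, S100A13 from 72.7 to 15.8, S100A10 from 7.01 to 0.880 and S100A11 from 8.97 to 1.95. FABP5 was at 36.2 and 13.4 FPKM and reached 2-fold only without centring. Below the minimum, PROM2 went from 0.306 to 1.38 FPKM and S100A4 from 1.63 to 0.124. The difference between the members and these relatives was not tested.

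Of the partners of AQP4 and other aquaporins, 6 of 11 were expressed, 2 were higher and none lower, with a median change of 0.64. All expressed records had shares of 14.7% higher and 12.1% lower. MLC1, an astrocyte membrane protein, went from 2.16 to 7.58 FPKM and AQP11 from 1.03 to 2.84. Of genes of the dystroglycan complex, which anchors AQP4, DAG1 was at 37.3 and 28.4 FPKM and DTNA at 11.8 and 9.11. KCNJ10 and HEPACAM, potassium channel and adhesion molecule of astrocyte endfeet, did not exceed 0.0914 and 0.0960 FPKM.

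In gliogenic signalling, 15 of 16 genes were expressed, 2 were higher and 2 lower, or 2 and 5 without centring, with a median change of -0.10. The centred counts lie near the shares over all expressed records, 14.7% higher and 12.1% lower. The Notch ligand DLL1 went from 4.12 to 21.3 FPKM, beside SOX9. The cytokine LIF went from 4.45 to 0.453 FPKM and the shared cytokine receptor IL6ST from 20.7 to 6.75, the latter at the threshold. STAT3, which carries this signal, was at 58.5 and 24.0 FPKM, LIFR at 40.8 and 19.5 and the Notch ligand JAG1 at 40.6 and 34.4. The record of LIFR carries a failed status at 2 of the 6 steps.

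Markers of other cells also differed between these days. Of 10 neuron markers 7 were higher and none lower, with a median of 2.60, and their summed level lay between 673 and 1849 FPKM. Over all expressed records 14.7% were higher and 12.1% lower. Without centring 1 neuron marker was lower, NEFL at -1.17, which went from 153 to 68.1 FPKM. STMN2 went from 32.3 to 727 FPKM, DCX from 5.46 to 88.0, SYP from 1.75 to 23.4, SNAP25 from 2.63 to 16.6 and ELAVL4 from 0.149 to 4.89, while GAP43 stood at 193 and 173, with 55.7 on day 1. All 10 proliferation genes were lower, with a median of -1.78, and their sum went from 1006 to 197 FPKM, with CCNB1 from 145 to 20.3, TOP2A from 104 to 25.3, AURKB from 74.1 to 8.41 and BUB1 from 38.2 to 4.98. PROM1 and TNC were also at least 2-fold lower on day 18 than on day 0, as were 12.1% of all expressed records. A link to the proliferation genes was not tested.

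Of 10 mesenchymal and neural crest markers 6 were expressed and 5 were lower, with a median of -2.44 and a sum that went from 670 to 57.5 FPKM. For comparison, 12.1% of all expressed records were lower and 14.7% higher. TAGLN went from 367 to 19.4 FPKM, COL3A1 from 238 to 30.5, COL1A2 from 33.6 to 3.81, THY1 from 15.7 to 2.25 and POSTN from 12.5 to 0.229, and COL1A1 was listed at 0 on every day. Of 10 oligodendrocyte lineage markers 2 were expressed, among them a merged record that holds PDGFRA, at 27.3 and 16.4 FPKM. OLIG1, OLIG2 and SOX10 did not exceed 0.196, 0.130 and 0.165 FPKM, and the sum of the list lay between 30.9 and 37.8 FPKM. Of the ependymal and choroid plexus markers, with sums between 3.96 and 9.59 FPKM, the 2 expressed were higher, FOXJ1 from 1.31 to 3.69 FPKM and CFAP126 from 2.34 to 4.28, the latter short of 2-fold without centring, RSPH1 was at 0.0900 and 0.501, and TTR was listed at 0 on every day but day 18. The part of these cell types in the changes of FABP7, SLC1A3, SLC1A2, PROM1 and TNC was not tested.

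**Figure D4:**
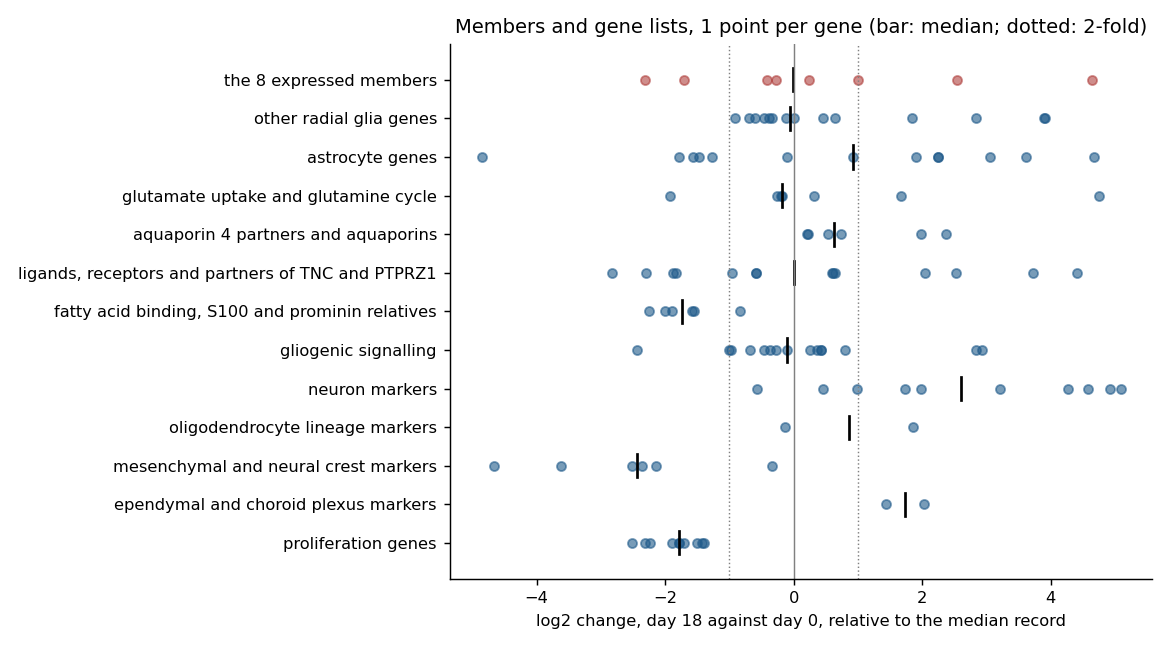
Log2 change of day 18 against day 0, relative to the median record (horizontal axis), for the 8 expressed members (red) and for the expressed genes of 12 lists (blue), 1 point per gene, with a bar at each median and dotted lines at 2-fold. The members span -2.32 for PROM1 to 4.65 for SLC1A2, the neuron markers have a median of 2.60 and the proliferation genes one of -1.78.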

How the data were processed

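Polyadenylated RNA of 20 cultures over 7 days was sequenced, and samples were grouped by the day in their titles. The authors' pipeline used TopHat2 for alignment to hg19, Cufflinks for transcript assembly and Cuffdiff2 for expression, over an annotation that joined coding genes with a catalogue of lincRNAs. TopHat2 and Cuffdiff2 ran at default options, whose library type is unstranded, on libraries of a TruSeq RNA kit. Program versions and the depth are not given in the sources used here. The deposited FPKM values hold 1 estimate by the authors per record and day, pooled over that day's cultures, and 0 columns hold single samples, so no error, interval or test was possible. Authors' columns of fold changes, test statistics, p-values and q-values were not used. Only the status words of that table, its names and the exon coordinates were.

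Ratios of FPKM + 0.1 were taken on the log2 scale and centred on the median of coding records with a mean of at least 1 FPKM. Where a symbol has several records the one with the highest mean counts. A change counted from 2-fold. The members, the 12 lists and the motifs were chosen with earlier results of these data known. Named by value were the members, up to 4 genes of a list with the highest mean FPKM, list genes changed at least 4-fold and the 2 records nearest in profile to each expressed member. Genes that complete a count of 6 or fewer, and markers near 0, were named after their values were seen. The symbols GLULP4 and PIFO were not matched. Some genes of the lists are counted but not reported by name here. Alternatives were FPKM as deposited, days scaled to the same total, a pseudocount of 1, a threshold of 1.5-fold, a minimum mean of 0.1 FPKM, the sum of a symbol's records and, added after seeing the data, day 11 in place of day 18 and counts of the lists as deposited. Scripts were tested on simulated data and used Python 3.11.15, pandas 2.3.3, NumPy 2.4.6 and Matplotlib 3.10.9.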

Additional observations from a re-analysis of the deposited data

How the results depend on the processing

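No paired analysis was possible because the deposited values hold 1 estimate per day and none of single cultures, and leaving out replicates was not possible for the same reason. No result changed direction past 2-fold under the alternatives run. The number of members past 2-fold was 2 at the first step, then 1, 0, 1, 2 and 3. With FPKM as deposited it was 4 on reaching day 1, 0 on reaching day 2, 0 on reaching day 5 and 1 on reaching day 18. With days scaled to the same total it was 1 on reaching day 1. With a pseudocount of 1 it was 0 on reaching day 2 and 0 on reaching day 5, and with a minimum mean of 0.1 FPKM it was 0 on reaching day 5. At 1.5-fold it was 5, 2, 2, 3, 4 and 5 in the order of the steps. The 3 higher and 2 lower members at day 18 against day 0 became 2 higher and 3 lower as deposited and with day 11 in place of day 18, and 2 and 2 with a pseudocount of 1 or a minimum mean of 0.1 FPKM. FABP7, at 1.00, was at 0.40 as deposited, 0.93 with a pseudocount of 1 and 0.22 at day 11, and S100B, at -0.42, was at -1.01 as deposited and -1.82 at day 11. SLC1A2, at 4.65, was at 3.78 with a pseudocount of 1. The sum of a symbol's records changed nothing, as each member has 1 record. Some calls rest on values at the threshold itself, and the pooled estimates give no error to judge them by.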
